A study of Mus musculus with 38 samples.

Results

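Neuro2A cells, a mouse neuroblastoma line that can be driven towards a neuronal form, were compared after 6 h in retinoic acid and before it. The comparison used the 7 arrays titled as 6 h of retinoic acid (RA 6 h) and the 7 titled as the 0 h control, 14 of the 38 arrays of the series, with all 576 probes. Cells of both groups had first grown for 48 h with 10% fetal bovine serum. At RA 6 h the medium had then been exchanged for one with 2% serum and 20 uM all-trans-retinoic acid, and cells were collected 6 h later. The 0 h control cells were collected at the end of the preculture, with no exchange of medium. No vehicle group or medium-exchange group is among the labels, so retinoic acid, the lower serum and the extra hours cannot be told apart. Each replicate was a pool of 4 to 6 plates of 1 cell line. Nothing in the labels says that the replicates came from separate cultures, so the p-values measure the spread between these samples, which may be technical.

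Retinoic acid enters cells and binds retinoic acid receptors, which sit on DNA as partners of retinoid X receptors. Without ligand the pair holds co-repressors, and with ligand it exchanges them for co-activators, so that direct target genes can change within hours. In neuroblastoma cells the ligand is best known for slowing growth and favouring the extension of neurites, which needs remodelling of actin filaments and microtubules.

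The arrays carried oligonucleotide probes for mouse KIAA genes, a set of long cDNAs collected largely from brain, so they sampled chosen genes and not the transcriptome. Values are log2 Cy5 intensity after quantile normalization over the 38 arrays, referred to as normalised log2 intensity. A difference is the mean of RA 6 h minus the mean of the control on that scale, with the standard error (SE) of a limma fit over all arrays. Of the probes, 473 had a named gene. Among markers of neurons 6 were measured (Kif5c, Myt1, Myt1l, Nefh, Sez6l and St18) and none passed the test. Among markers of other cells 2 were measured, Pxdn of the extracellular matrix at 0.82 ± 0.42 at RA 6 h against 1.16 ± 0.33 in the control, and Phldb1 at 0.22 ± 0.37 at RA 6 h against 0.33 ± 0.35 in the control (mean ± SD, n = 7 each). These are too few to check the label of the cells.

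Before normalization, the interquartile range of an array in log2 units was 1.14 ± 0.41 at RA 6 h and 1.51 ± 0.22 in the control (SD, n = 7 each), a difference of -0.37 with a two-sided exact permutation p of 0.0495 over 3432 splits. As a standard deviation the exact permutation p was 0.0897, and leaving out 1 array at a time gave a p over 0.05 for 9 of the 14 arrays, up to 0.109. Of the RA 6 h arrays, replicates 1 and 2 never reached the lowest deposited intensity of 0.540, here called the floor, while the other 5 held 76 to 164 probes there. All 7 control arrays reached it, with 120 to 210 probes. The source of the floor is not given, and a value there is read below as an upper bound. Since RA 6 h replicates 1 and 2 could hold no gene at the floor, counts of RA 6 h arrays there rest on the other 5. The median rank correlation of an array with all other arrays of the series, of every time, was 0.67 for RA 6 h replicate 3 and 0.74 for replicate 2. It was 0.79 to 0.84 for the other 5 RA 6 h arrays. In the control it was 0.74 for replicate 1 and 0.78 to 0.86 for the other 6 arrays. With 7 arrays a group, a difference had a median SE of 0.18, or a factor of 1.14 in intensity.

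At 6 h 1 probe passed at an adjusted p of 0.05, and it was lower: Ablim1, an actin-binding LIM protein that links actin filaments to other proteins. No probe was called higher. The call is 0.174% of the 576 probes tested. Ablim1 lay at -0.56, -0.18 and 0.26 (lowest, median and highest of 7) at RA 6 h, against 0.45, 0.73 and 1.10 in the control. The groups did not overlap, and no array of either held Ablim1 at the floor. Its mean was -0.16 ± 0.31 at RA 6 h and 0.73 ± 0.23 in the control (SD, n = 7 each). Ablim1 fell by 0.88 on the log2 scale (SE 0.20, limma adjusted p = 0.0429), to an intensity 1.85-fold lower than in the control. The exact permutation test over the 14 arrays alone gave p = 0.000583, the smallest that 3432 splits can give, unadjusted and for a probe chosen by its difference. With replicates 1 and 2 of RA 6 h and the other arrays that never reached the floor left out, the log2 difference was -1.03 (limma adjusted p = 0.0374). With the interquartile range of each array as a covariate it was -0.74 and did not pass (limma adjusted p = 0.158). Leaving out 1 array at a time ended the call for 20 of the 38 arrays. Over all 38 such fits the limma adjusted p ran from 0.0237 to 0.182. Among the arrays of this comparison, the call ended without control replicates 1, 3, 4, 5 or 6 and without RA 6 h replicates 2, 3, 4, 5 or 7.

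The sequence before the most upstream annotated start of Ablim1 is shown because retinoic acid receptors bind repeats of the 6-base element AGGTCA, and Ablim1 is the gene that passed. RefSeq places 5 start windows for Ablim1 in GRCm38.p6. The 250 bases before the most upstream one lie on the minus strand of chr19:57314920-57315169, printed 5′ to 3′ along the gene.
Ablim1: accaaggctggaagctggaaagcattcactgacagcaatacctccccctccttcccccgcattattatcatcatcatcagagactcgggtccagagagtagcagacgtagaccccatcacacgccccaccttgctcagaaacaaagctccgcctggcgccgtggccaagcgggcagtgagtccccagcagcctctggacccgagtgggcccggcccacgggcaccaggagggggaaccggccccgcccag
None of these letters is in capitals, since AGGTCA was on neither strand here or in the 250 bases before the other 4 starts. It was in 9.64% of the 591 windows of this length for genes on the array, and in 14% of all 32851. These shares count single windows, whereas Ablim1 has 5, and only exact copies of the element were sought. Which start Neuro2A cells use was not tested, and the element may lie elsewhere.

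Only 1 other probe separated the groups without overlap, which makes 0.347% of the probes with Ablim1 counted. It was Cltc, the clathrin heavy chain, which builds the coat of endocytic vesicles. Cltc had 0.03, 1.49 and 1.74 (lowest, median and highest) at RA 6 h, against 2.04, 2.12 and 2.31 in the control. All 7 RA 6 h arrays lay under all 7 control arrays, and the RA 6 h arrays were widely spread, with an SD of 0.64 against 0.10 in the control. Its log2 difference of -1.03 ± 0.35 (SE) did not pass (limma adjusted p = 0.402) and was -0.72 without the arrays that never reached the floor.

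**Figure D1:**
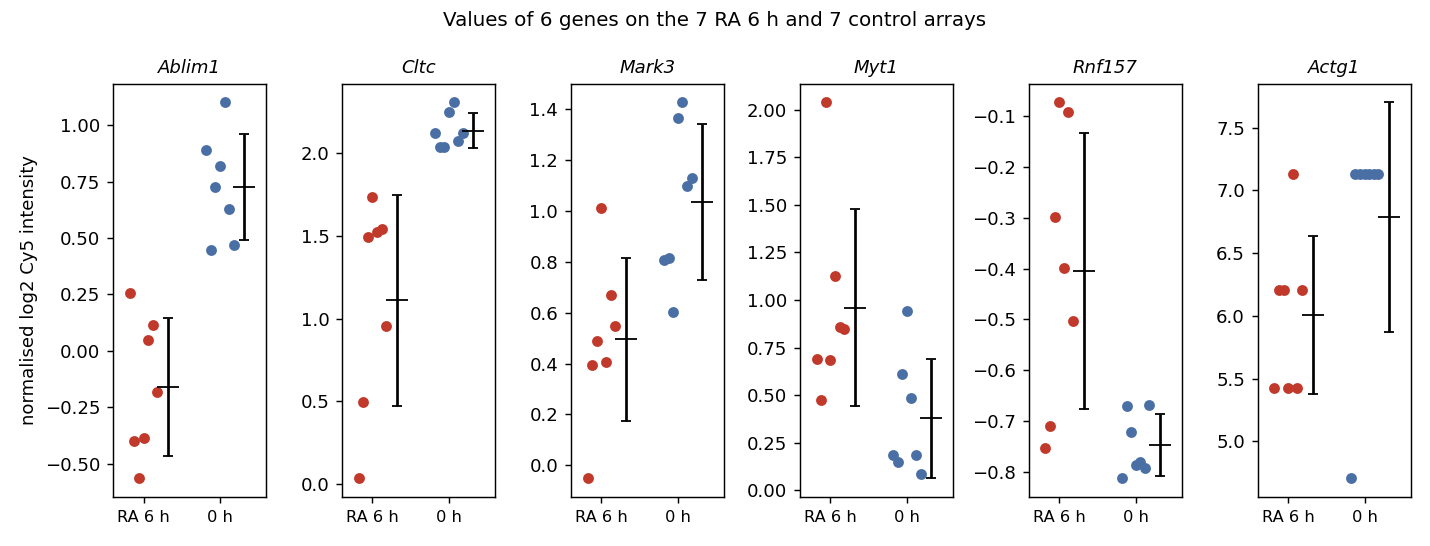
Normalised log2 Cy5 intensity (vertical axes, each with its own range) of 6 genes on the 7 RA 6 h arrays (red, left) and the 7 control arrays at 0 h (blue, right), with the mean and SD in black. Ablim1 and Cltc do not overlap between the groups, Mark3, Myt1 and Rnf157 do, and Actg1 takes the top value of 7.13 on 6 of the 7 control arrays.

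The rest of the array gave no call, and 33 of the 576 probes, or 5.73%, had an unadjusted limma p under 0.05, 15 of them higher and 18 lower. That number was 69 on the deposited values and 68 with median centring. On quantile normalised values it was 84 with trend and robust variances and 47 with array quality weights. It was 31 (of 477 probes, dim ones left out) to 39 in the other settings. What moved the number was not tested. Since no other probe passed, the genes with the most negative moderated t after Ablim1 are given as values. Here and below, counts of RA 6 h arrays beyond the control mean describe genes chosen by their t or p in this comparison. Without the share over all probes, such counts are no further evidence of a difference. Mark3, a kinase of microtubule-associated proteins, had -0.05, 0.49 and 1.01 (lowest, median and highest) at RA 6 h, against 0.60, 1.10 and 1.43 in the control. All 7 RA 6 h arrays were under the control mean, with overlap between the groups, and the log2 difference was -0.54 ± 0.16 (SE, limma adjusted p = 0.401). Nisch, the integrin-binding protein nischarin, had 1.12, 1.63 and 2.18 at RA 6 h, against 1.54, 2.38 and 2.53 in the control. Its log2 difference was -0.58 ± 0.20 with 7 of 7 RA 6 h arrays under the control mean. The mitochondrial import receptor Tomm70a averaged 1.63 ± 0.56 at RA 6 h and 2.40 ± 0.38 in the control (SD, n = 7 each). Ube4b, a U-box ubiquitin ligase, averaged 0.66 ± 0.91 at RA 6 h and 1.47 ± 0.35 in the control, so the spread at RA 6 h was as wide as the difference of -0.81. The uncharacterised 2610507B11Rik stood at -0.44 ± 0.15, Bod1l, which protects replication forks, at -0.45 ± 0.17 and Gon4l at -0.42 ± 0.18 (log2 difference ± SE). Of the 15 named genes with the most negative t, 12 had a mean level above the median probe, against 7 of the 15 with the most positive t.

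At the other end of the order the largest t was that of Rnf157, a RING-type ubiquitin ligase. Rnf157 had -0.75, -0.40 and -0.07 (lowest, median and highest) at RA 6 h, against -0.81, -0.78 and -0.67 in the control. The groups overlapped through the lowest RA 6 h arrays. On 4 of 7 control arrays but no RA 6 h array Rnf157 was at the floor, so its size in the control has only an upper limit. RA 6 h replicates 1 and 2, which never reached the floor, had Rnf157 at -0.75 and -0.71, within the range of the controls. The log2 difference of 0.34 ± 0.11 (SE) did not pass (limma adjusted p = 0.402). On the deposited values without further normalization it did (0.55, adjusted p = 0.00613), as it did with median centring (0.52, adjusted p = 0.0086), with array range added as a covariate (0.47, adjusted p = 0.0404) and without the arrays that never reached the floor (0.53, adjusted p = 0.0373).

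Myt1, a zinc-finger factor of developing neurons, had 0.47, 0.85 and 2.04 (lowest, median and highest) at RA 6 h, against 0.09, 0.19 and 0.94 in the control. All 7 RA 6 h arrays lay above the control mean, replicate 3 stood far above the others, and the groups overlapped. Its log2 difference was 0.58 ± 0.19 (SE, limma adjusted p = 0.402). Its relatives Myt1l and St18 were at 0.12 ± 0.19 and -0.14 ± 0.09. The other measured neuronal markers were lower and did not pass, with the neurofilament Nefh at -0.17 ± 0.16, the kinesin Kif5c at -0.16 ± 0.31 and Sez6l at -0.10 ± 0.28. Of the 6 markers 2 were higher and 4 lower, with a median of -0.12, which was -0.23 without the arrays that never reached the floor and -0.002 after a correction for probe order. Sel1l3 averaged 1.37 ± 0.51 at RA 6 h and 0.85 ± 0.29 in the control, and Sh3bp5l 0.88 ± 0.37 at RA 6 h and 0.39 ± 0.35 in the control (SD, n = 7 each). The gene induced by oestrogen Greb1 was at 0.41 ± 0.19, the dendritic protein Ddn at 0.31 ± 0.16 and 6430548M08Rik at 0.34 ± 0.16 (log2 difference ± SE). Of the 15 named genes with the most positive t, 8 had at least 1 array of the 2 groups at the floor, against 3 of the 15 with the most negative t. The share over all probes was not counted.

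**Figure D2:**
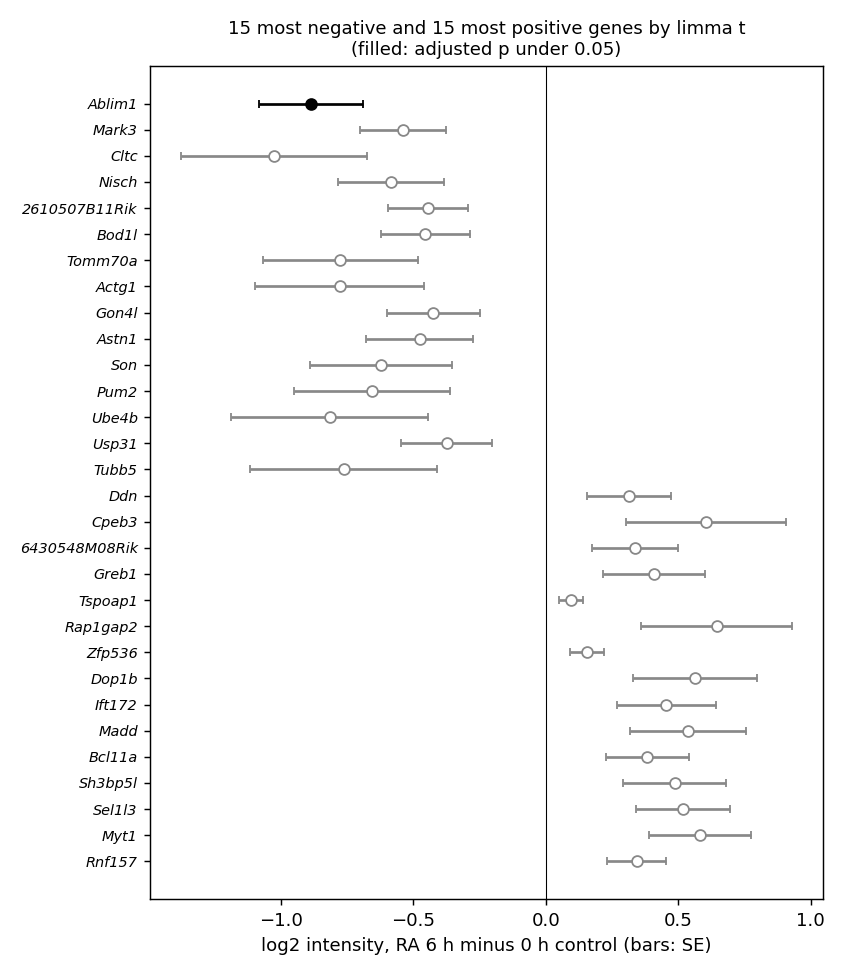
Log2 intensity of RA 6 h minus the 0 h control (horizontal axis, bars are SE) for the 15 named genes with the most negative and the 15 with the most positive limma t, ordered by t. Ablim1, the filled point at the top, is the only one that passed; the other 29 had adjusted p of 0.401 or more.

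Genes of the retinoic acid pathway were nearly absent from the array. Of 84 symbols for receptors, binding proteins, enzymes, co-regulators and known targets, 5 were measured, all of them co-regulators or receptor partners, and none passed. Asxl1, a Polycomb-group protein that binds retinoic acid receptors, had -0.63, 0.57 and 1.21 (lowest, median and highest) at RA 6 h, against -0.53, -0.13 and 0.81 in the control. The groups overlapped over most of their range, and the log2 difference was 0.36 ± 0.29 (SE). Rere, a nuclear co-regulator, was at 0.19 ± 0.23, and the Mediator subunit Med13l at 0.10 ± 0.24. Acin1, which takes part in splicing and binds the receptor, was at -0.13 ± 0.20, and Zfp423, a zinc-finger partner of the receptor, at -0.19 ± 0.18. The median of the 5 was 0.10, against -0.01 over all probes. It was -0.03 without the arrays that never reached the floor and 0.26 after a correction for probe order. Med13l was at -0.076 without those arrays and -0.057 with array quality weights.

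Of 19 measured actin genes 8 were higher and 11 lower at RA 6 h, with a median difference of -0.03 that was -0.10 after a correction for probe order. Ablim1 was the 1 member called, against 0.174% of all probes, and 1 call says nothing of the list. Actg1, cytoplasmic gamma-actin, had 5.43, 6.21 and 7.13 (lowest, median and highest) at RA 6 h, against 4.71, 7.13 and 7.13 in the control. Control replicate 1 was the lowest of all 14 arrays and the other 6 controls were at the top value. The log2 difference of Actg1 was -0.78 ± 0.32 (SE, limma adjusted p = 0.599). With single arrays left out it ran from -1.09 to -0.67 and did not pass (limma adjusted p from 0.0619 to 0.863). Of the talins, which link integrins at focal adhesions to actin, Tln2 was at -0.32 ± 0.18 and Tln1 at 0.26 ± 0.31. Tln2 lay at the floor on 2 control and 2 RA 6 h arrays. Kank1, which organises cortical actin, was at 0.36 ± 0.20 with 4 control arrays and no RA 6 h array at the floor, and at 0.18 without RA 6 h replicate 3. Of 29 genes of microtubules, motors and cilia 16 were higher and 13 lower, with a median of 0.04 and no call. Ift172, of the intraflagellar transport complex, was above the control mean on 7 of 7 RA 6 h arrays, at 0.23 ± 0.21 against -0.22 ± 0.28 in the control (SD, n = 7 each). The tubulin Tubb5 had a log2 difference of -0.76 ± 0.35, which was -1.39 on the deposited values, and the tubulin-binding Ckap5 0.45 ± 0.25 (SE).

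Among the brightest probes the order differed between arrays. Quantile normalization gives the brightest probe of every array the same value, so for these probes the normalised value is a place in the order of the spots and not a measure of transcript amount. Actg1 was the brightest spot on 1 of 7 RA 6 h arrays and on 6 of 7 control arrays. Actb, cytoplasmic beta-actin, was the brightest on 3 of 7 RA 6 h arrays and on none of the control arrays, with a log2 difference of 0.63 ± 0.43 (SE, limma adjusted p = 0.791). Actb averaged 6.17 ± 1.00 at RA 6 h and 5.54 ± 0.29 in the control (SD, n = 7 each). The median place from the top was 6 at RA 6 h and 5 in the control for Tubb5, and 5 at RA 6 h and 4 in the control for the glycolytic enzyme Gapdh. Tcf25 had a median place of 9 in both groups. 

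Signalling and surface genes showed no call. Of 34 exchange factors and activating proteins of small GTPases, the switches that control the cytoskeleton and vesicle traffic, 18 were higher and 16 lower with a median of 0.03. Madd, an exchange factor for Rab3, averaged 0.80 ± 0.47 at RA 6 h and 0.26 ± 0.50 in the control (SD, n = 7 each). Rap1gap2, which switches off Rap, had -0.81, -0.09 and 1.27 (lowest, median and highest) at RA 6 h, against -0.81, -0.79 and -0.05 in the control. The RA 6 h arrays covered the whole range of the controls and went above it, 4 of the 7 control arrays were at the floor, and the log2 difference was 0.64 ± 0.28 (SE, limma adjusted p = 0.731). Dock9, an activator of Cdc42, was at 0.55 ± 0.35 and Arap2 at 0.33 ± 0.19. Arap2 lay at the floor on 4 control arrays and 1 RA 6 h array. For axon guidance and adhesion 31 genes were measured, 16 higher at RA 6 h and 15 lower, with a median of 0.02. The astrotactin Astn1, which acts in the migration of neurons along glia, was at -0.48 ± 0.20, the plexin Plxnb2 at -0.37 ± 0.22, Nav1 at -0.39 ± 0.23 and Megf11 at 0.32 ± 0.17. Megf11 lay at the floor on 2 control arrays and 1 RA 6 h array.

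Among the 35 genes of the synapse, 21 were higher at RA 6 h and 14 lower, with a median of 0.03. Rimbp2, which tethers calcium channels at the active zone, was at 0.34 ± 0.17 (log2 difference ± SE) and at 0.19 without RA 6 h replicate 3. Tspoap1 lay at the floor on all 7 control arrays and 2 RA 6 h arrays, so its difference has no defined size. After normalization these control values ran from -0.8127 to -0.7804. Tspoap1 lay above every control array on 3 of the 7 RA 6 h arrays, which were off the floor. On RA 6 h replicates 1 and 2, which never reached the floor, it was at -0.8152 and -0.815, below every control array. Tanc1, a postsynaptic scaffold, was at -0.31 ± 0.16. Of 22 kinases, phosphatases and adaptors 9 were higher and 13 lower, with a median of -0.05 that turned to 0.03 after a correction for probe order and 0.01 on the deposited values. The kinase Hipk1 was at 0.35 ± 0.20, the Akt phosphatase Phlpp1 at 0.31 ± 0.22 and the kinase anchor Akap9 at 0.42 ± 0.30. The adenylyl cyclase Adcy2 was at 0.22 ± 0.18, with 5 control arrays and 1 RA 6 h array at the floor, and at 0.0023 without RA 6 h replicate 3.

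No regulator of transcription was called. Of 38 zinc-finger and other transcription factors 24 were higher and 14 lower, with a median of 0.06 that was 0.04 after a correction for probe order. Over all probes 268 were higher and 308 lower, and over the named genes 242 were higher and 231 lower. Bcl11a, a zinc-finger repressor, was at 0.38 ± 0.16, Zfp536 at 0.16 ± 0.06 and the Groucho co-repressor Tle3 at 0.49 ± 0.27 (log2 difference ± SE). Zfp536 lay at the floor on 6 of 7 control arrays and Bcl11a on 4, so these sizes rest on values with only an upper limit in the control. Without RA 6 h replicate 3 Bcl11a was at 0.21 and Zfp536 at 0.08. Of 23 chromatin genes 12 were higher and 11 lower, with a median of 0.06 that turned to -0.02 on the deposited values. The co-repressor scaffold Rcor1 was at -0.32 ± 0.17, the histone methyltransferase Kmt2b at -0.28 ± 0.18 and Jmjd6 at -0.39 ± 0.33. Of 7 genes of cohesion, repair and the cell cycle, Ccar2 was at 0.42 ± 0.24, Cdk19 at 0.34 ± 0.24 and the SMC-family protein Smc5 at -0.22 ± 0.28. Cdk19 lay at the floor on 2 control arrays and 1 RA 6 h array.

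Of 22 measured genes of RNA processing, translation and ribosome biogenesis 6 were higher and 16 lower at RA 6 h, with a median of -0.14, and none passed. Son, a splicing factor, had -0.09, 0.09 and 0.95 (lowest, median and highest) at RA 6 h, against 0.57, 0.94 and 1.44 in the control. All 7 RA 6 h arrays were under the control mean, with overlap, and the log2 difference was -0.62 ± 0.27 (SE, limma adjusted p = 0.677). Pum2, a repressor of mRNA translation, was under the control mean on 7 of 7 arrays, at 0.73 ± 0.52 at RA 6 h against 1.39 ± 0.25 in the control (SD, n = 7 each). Urb2, of ribosome biogenesis, was at -0.33 ± 0.18. Cpeb3, which binds the ends of mRNAs and controls their translation in neurons, was above the control mean on 7 of 7 RA 6 h arrays, at 0.61 ± 0.30, with 3 control arrays at the floor. The median was -0.09 after a correction for probe order and -0.27 on the deposited values.

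Of 39 ubiquitin ligases, deubiquitinases and adaptors 18 were higher and 21 lower, with a median of -0.08. Besides Rnf157 and Ube4b, the deubiquitinase Usp31 was at -0.37 ± 0.17 and Fbxw11, which picks substrates for a ligase, at -0.37 ± 0.18 (log2 difference ± SE). Of 41 genes of autophagy and endolysosomal traffic 22 were higher and 19 lower, with a median of 0.01. Cltc and Nisch were at its lower end. Dop1b, a homologue of a yeast protein of membrane traffic, was above the control mean on 7 of 7 RA 6 h arrays at 0.56 ± 0.23. It lay at the floor on 3 control arrays and no RA 6 h array. The recycling-endosome protein Rab11fip3 was at 0.23 ± 0.15. Of 18 genes of transport and metabolism 9 were higher and 9 lower. Besides Tomm70a, the mitochondrial fusion protein Mfn2 was at -0.39 ± 0.31 and Gapdh at -0.42 ± 0.29. Gapdh was at -1.08 on the deposited values and at -0.18 without control replicate 1. None of these members passed in limma.

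**Figure D3:**
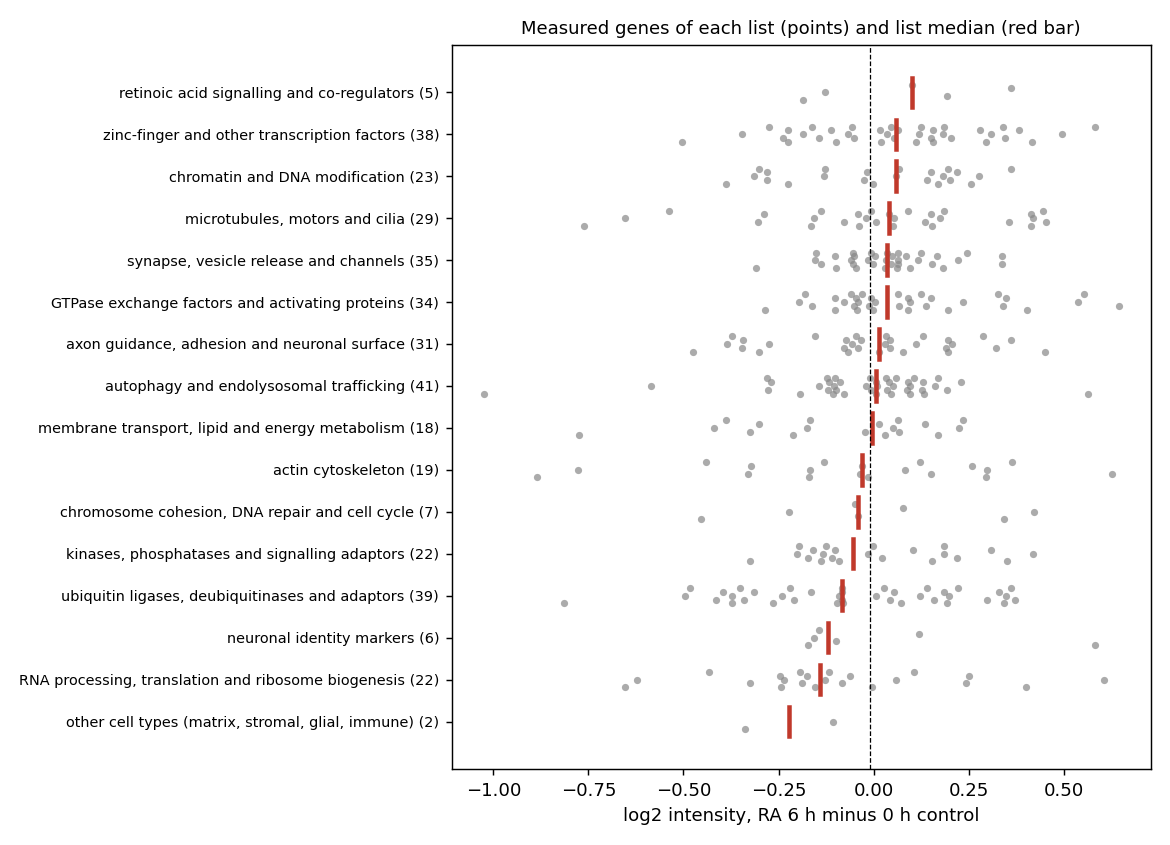
Log2 intensity of RA 6 h minus the 0 h control (horizontal axis) for each measured gene of 16 lists, with the number of genes in parentheses, the list median as a red bar and the median of all probes as a dashed line. Medians of the lists with over 10 genes lie between -0.14 and 0.06.

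Differences between RA 6 h and the control followed the order of the probes. Over all probes the log2 differences had an autocorrelation of 0.42 at a distance of 24 probe numbers and -0.27 at 12, and no layout of the slide was used here. In consecutive runs of 24, probes in places 1 to 12 had a median difference of 0.10, against -0.04 in places 13 to 24 (288 probes each). Of the 15 genes with the most positive t 12 lay in the first 12 places, against 2 of the 15 with the most negative t. After a smooth surface over these places was subtracted from each array, a correction chosen after the data were seen, the medians were 0.02 and -0.003. An autocorrelation of 0.21 at a distance of 24 was left, so the pattern was reduced and not removed. Ablim1 was then at -0.76 (limma adjusted p = 0.0438), Cltc at -0.92, Mark3 at -0.43 and Myt1 at 0.41, and no other probe passed. The part of probe order in the other differences was not tested.

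**Figure D4:**
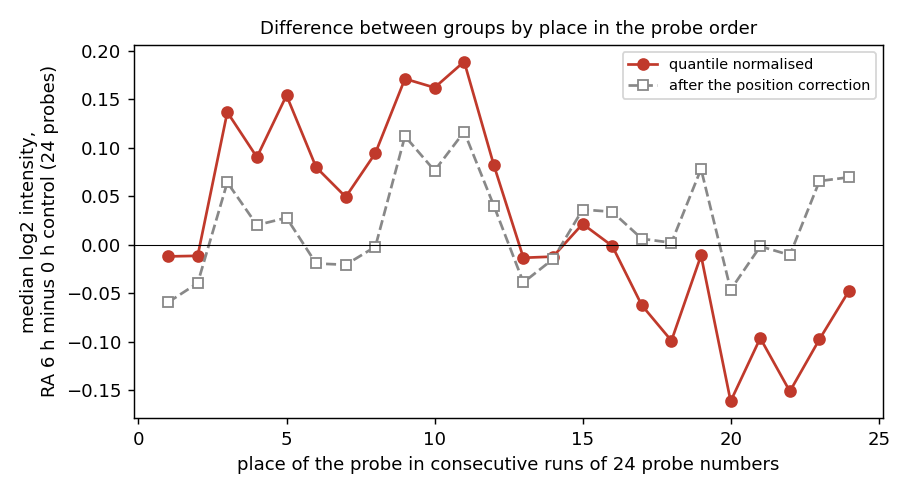
Median log2 intensity of RA 6 h minus the 0 h control (vertical axis) over the 24 probes at each place in runs of 24 probe numbers (horizontal axis), as quantile normalised (red) and after the position correction (grey, dashed). Places 3 to 12 lie above 0 and places 17 to 24 below it before the correction.

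Whether the RA 6 h values differ from those at other times was tested among arrays that all had the exchange of medium, so serum is shared there but the time since the exchange is not. No probe passed between RA 6 h and RA 3 h (smallest limma adjusted p = 0.886, with 23 probes at an unadjusted p under 0.05) or RA 12 h (0.441, with 24). Ablim1 averaged 0.73 in the control, 0.45 after 1 h, 0.45 after 3 h, -0.16 after 6 h, 0.05 after 12 h and -0.17 after 24 h. The step between RA 6 h and RA 3 h, -0.60 ± 0.21 (SE), did not pass (limma adjusted p = 0.886), so the data do not fix the hour at which Ablim1 fell. RA 6 h minus RA 24 h was 0.01 ± 0.20 for Ablim1.

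Between RA 6 h and RA 24 h 2 probes passed, 0.347% of those tested, both lower at RA 6 h. Cyfip2, which belongs to the WAVE complex and drives actin branching, averaged -0.20 ± 0.37 at RA 6 h and 0.93 ± 0.53 at RA 24 h (SD, n = 7 each), a log2 difference of -1.13 (limma adjusted p = 0.00224). Plekhg1 averaged -0.28 ± 0.37 at RA 6 h and 0.49 ± 0.24 at RA 24 h (SD, n = 7 each), a log2 difference of -0.77 (adjusted p = 0.00456). Against the control both were within their spread at RA 6 h, at -0.13 ± 0.20 for Cyfip2 and 0.13 ± 0.15 for Plekhg1 (log2 difference ± SE). The 24 h arrays were narrower still, with an interquartile range of 0.88 ± 0.16 (SD, n = 7). On the deposited values, after median centring and in fits of these 2 groups alone neither gene passed, and without the arrays that never reached the floor Cyfip2 passed and Plekhg1 did not.

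**Figure D5:**
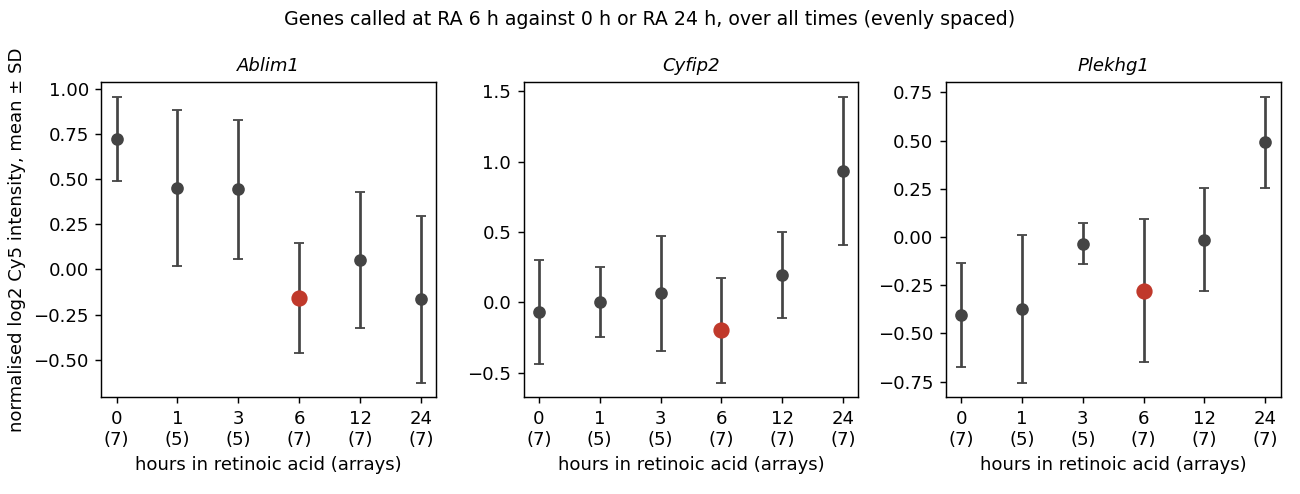
Mean normalised log2 Cy5 intensity with SD (vertical axes) of Ablim1, Cyfip2 and Plekhg1 at 0, 1, 3, 6, 12 and 24 h, evenly spaced, with the number of arrays in parentheses and RA 6 h in red. Ablim1 is at -0.16 at RA 6 h and 0.73 at 0 h, while Cyfip2 and Plekhg1 are at 0.93 and 0.49 at 24 h, above all other times.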

How the data were processed

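The authors deposited linear Cy5 intensity values for 576 probes on 38 single-colour arrays. Per the labels' protocols, polyadenylated RNA from 4 to 6 pooled plates was labelled with Cy5, hybridised, scanned and quantified. Background correction, scaling and the source of the floor are not given in the sources used here. Probes were named from the platform annotation: 473 had 1 gene and 103 none, and 472 of the 473 were found in RefSeq (GRCm38.p6). No detection value was used.

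After log2 and quantile normalization, limma (version 3.58.1, R 4.3.3) was fitted to every probe over the 38 arrays, with group as factor and 32 residual degrees of freedom. Moderated p-values were two-sided and adjusted by Benjamini-Hochberg across the 576 probes within each contrast. The threshold was 0.05. The code was tested on simulated data. The comparison, the 16 gene lists (6304 symbols) and the tests were chosen with earlier results of these data known. Lists are described by counts and medians and carry no test. Named genes were every probe called; the 15 named genes at each end of t; the 4 members of each list with the smallest p; probes whose groups do not overlap; the retinoic acid list; probes called between times; and the 5 brightest. The alternatives covered scaling, filters, variances, weights, the array range, left-out arrays, the replicate number and probe order.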

Additional observations from a re-analysis of the deposited data

Results flagged for a closer look

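On single arrays 15 values of the named genes stood apart from the other 6 of their group, by a gap that is large beside the group's range. Among 144 groups looked at, chance alone would give about 1 in 20, or 7.2, if values followed a normal distribution without ties. Some groups do not, such as the Zfp536 controls with 6 of 7 arrays at the floor. The 15 can therefore not be set against 7.2. RA 6 h replicate 3 held 4 of them: Myt1 at 2.04, Kank1 at 0.805, Adcy2 at 0.794 and Hspa12a at 0.160, all above the other arrays at 6 h. RA 6 h replicate 7 held Smc5 at 0.689 and Plxnb2 at 0.196, both high, and replicate 5 held Phlpp1 at -0.0852, low. Control replicate 1 held 5: Actg1 at 4.71, against 7.13 on the other 6, Gapdh at 6.21, Cpeb3 at 0.991, Hspa12a at 0.850 and Zfp536 at -0.732. The other controls gave Adcy2 at -0.364 on replicate 3, Rap1gap2 at -0.0464 on replicate 5 and Actb at 6.21 on replicate 6. The 2 arrays with most such values were RA 6 h replicate 3 and control replicate 1. Within their groups they also had the lowest median rank correlation with the other arrays of the series.

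The RA 6 h and RA 24 h arrays differed in Cyfip2 (log2 -1.13) and Plekhg1 (log2 -0.77), by limma's test of the difference itself.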

How the results depend on the processing

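Over 12 other settings of RA 6 h against 0 h the log2 difference of Ablim1 stayed below 0 (-1.03 to -0.485; it was -0.485 with an offset of 1) and the call held in 9. The count of calls was 2, Ablim1 and Rnf157, with no normalization after deposit, with median centring and without the 8 arrays off the floor. It was 0 with trend and robust variances (84 probes at an unadjusted p under 0.05; Ablim1 at adjusted p = 0.0513). Adding array range as a covariate left 1 call, Rnf157. The replicate block gave 0, with 39 probes at an unadjusted limma p under 0.05 and Ablim1 at adjusted p = 0.154. Deviations of same-numbered RA 6 h and control arrays had correlations from -0.39 (replicate 7) to 0.24 (replicate 1) over the 7 pairs. Pairs with unlike numbers were not compared, so whether the numbers pair the arrays was not tested. Leaving out single arrays gave 0 to 1 calls. Against RA 3 h the count was 0 in every setting. Against RA 12 h it was 1 (Tenm4, lower at RA 6 h) with array weights, and 0 to 1 over left-out arrays (1 without RA 12 h replicate 5). Against RA 24 h it was 0 as deposited, with median centring and in both fits of these groups alone, 4 without the arrays off the floor (Actb higher; Cyfip2, Tle3 and Psd3 lower at RA 6 h), and 2 to 3 over left-out arrays. The range of the arrays, as a standard deviation, differed by -0.155 (exact permutation p = 0.0897), and with single arrays left out the interquartile range differed by -0.436 to -0.247, without the call for 9 of 14 arrays. Signs turned for Med13l (-0.0574 with array weights, -0.0758 without the arrays off the floor, with -0.0236 to 0.2267 over left-out arrays), Myt1l (-0.101 with the range covariate) and Tcf25 (-0.264 to 0.0449 over left-out arrays). List medians turned sign for axon guidance (-0.02), synapse (-0.003) and autophagy (-0.03) without the arrays off the floor. So did autophagy on the deposited values (-0.02) and cohesion after the position correction (0.03), besides those given above. The median of all probes, -0.01, turned to 0.08 on the deposited values and 0.005 after the position correction. That of the named genes, 0.006, turned to -0.01 without the arrays off the floor. The causes were not tested.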
